A study of Mus musculus with 6 samples.

Results

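The genes described here are 10 targets of the tumour suppressor p53 and promoters of cell death, namely Btg2, Phlda3, Bcl2l11, Cdkn1a, Mdm2, Ccng1, Bax, Bbc3, Pmaip1 and Trp53inp1. They were found as all probe sets (groups of short array oligonucleotides read as 1 value) whose platform annotation gives exactly 1 gene symbol and whose symbol is on that list. The rule found 20 probe sets for 9 of the 10 genes, among 45101 probe sets and 18193 single-symbol genes on the array. Bax had no probe set in the annotation used here and is not analysed here. The genes were chosen with results of these data known, so no count below is independent evidence of a direction.

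The series compared beta-catenin conditional knockout kidneys with normal kidneys of the mouse, all at embryonic day 12.5, on 6 single-colour Affymetrix arrays, 3 per group. Knockout kidneys carried Hoxb7-Cre:Gfp and a beta-catenin (Ctnnb1) allele with loxP sites around exons 2 to 6, and normal kidneys came from mice labelled only as normal, with no statement on whether they carried the Cre or the floxed allele. The Hoxb7 promoter drives Cre in the ureteric bud, the branching epithelium from which collecting ducts form, so the surrounding mesenchyme, stroma and vessels of these whole kidneys kept the gene. After dissection the tissue of each kind was divided randomly over 3 vials, and 1 µg of RNA from each was amplified, so p-values measure the spread between vials, which may be partly technical. The titles set the groups, although the knockout samples' description field names normal kidney.

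The protein p53 is held at a low level in most cells by Mdm2, a ubiquitin ligase that p53 itself induces, so that the pair forms a feedback loop. When DNA damage or other stress frees p53, it switches on genes that halt the cell cycle, genes that restrain or repeat its own signal, and genes of the BH3-only family, small proteins that bind the Bcl-2 proteins guarding mitochondria and so start apoptosis. In the developing kidney the balance matters in both compartments. Mouse kidneys that lose Mdm2 from the ureteric bud form poorly through p53, and the cystic kidneys of mice without Bcl-2 are relieved when the BH3-only gene Bcl2l11 is also removed.

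To show what p53 could read in front of these genes, the 250 bases upstream of annotated transcription starts were taken from RefSeq (build GRCm38.p6), where 7 of the 9 measured genes, all but Trp53inp1 and Pmaip1, had 11 such windows. The p53 half-site consensus, purines around C, A or T in the middle, then G and pyrimidines, reads the same on both strands and was searched without mismatch. It was present in 3 of the 11 windows and in 7.13% of all 32851 windows. The 3 windows with a half-site are printed first. Then come windows of Btg2, Phlda3 and Bcl2l11, the genes with probe sets that did not overlap between the groups, in which no half-site was found. The windows not printed held no half-site either. They are those of Bbc3, whose groups overlapped, and the second ones of Cdkn1a and Bcl2l11. Presence or absence in these windows does not show whether p53 binds a gene. Capitals mark half-sites without mismatch and 20-base pairs of adjacent half-sites with at most 1 mismatch.
Cdkn1a (first start), chr17:29090729-29090978, plus strand: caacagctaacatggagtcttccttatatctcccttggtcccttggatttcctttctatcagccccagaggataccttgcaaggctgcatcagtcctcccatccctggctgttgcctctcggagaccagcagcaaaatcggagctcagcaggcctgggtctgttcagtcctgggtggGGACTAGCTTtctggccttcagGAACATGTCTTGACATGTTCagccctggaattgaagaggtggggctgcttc
Ccng1, chr11:40755287-40755536, minus strand: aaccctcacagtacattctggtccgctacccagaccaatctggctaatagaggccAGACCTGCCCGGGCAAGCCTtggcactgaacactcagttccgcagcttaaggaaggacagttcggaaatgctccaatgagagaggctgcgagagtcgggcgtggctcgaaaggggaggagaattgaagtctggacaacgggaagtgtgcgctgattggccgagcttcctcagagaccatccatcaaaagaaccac
Mdm2, chr10:117710759-117711008, minus strand: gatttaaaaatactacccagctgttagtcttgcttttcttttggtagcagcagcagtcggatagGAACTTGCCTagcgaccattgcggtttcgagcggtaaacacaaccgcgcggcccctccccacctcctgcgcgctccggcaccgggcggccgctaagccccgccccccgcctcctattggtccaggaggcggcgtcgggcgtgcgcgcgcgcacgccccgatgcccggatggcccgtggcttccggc
Btg2, chr1:134079156-134079405, minus strand: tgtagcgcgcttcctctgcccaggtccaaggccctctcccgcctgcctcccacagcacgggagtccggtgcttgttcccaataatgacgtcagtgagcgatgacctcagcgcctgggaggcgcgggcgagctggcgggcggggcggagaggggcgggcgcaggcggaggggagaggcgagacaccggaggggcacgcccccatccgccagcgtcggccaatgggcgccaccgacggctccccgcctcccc
Phlda3, chr1:135765835-135766084, plus strand: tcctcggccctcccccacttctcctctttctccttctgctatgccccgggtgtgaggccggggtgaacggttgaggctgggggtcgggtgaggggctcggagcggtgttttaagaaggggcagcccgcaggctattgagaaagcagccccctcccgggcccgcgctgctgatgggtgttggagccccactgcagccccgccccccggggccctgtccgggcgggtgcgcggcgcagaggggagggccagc
Bcl2l11 (first start), chr2:128125788-128126037, plus strand: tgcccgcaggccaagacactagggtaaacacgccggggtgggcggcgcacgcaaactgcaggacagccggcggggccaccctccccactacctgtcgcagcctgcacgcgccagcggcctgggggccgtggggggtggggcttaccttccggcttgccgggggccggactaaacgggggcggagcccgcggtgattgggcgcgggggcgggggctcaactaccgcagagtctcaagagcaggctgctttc

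The Cdkn1a window lies before the first of 2 annotated starts, 2790 bases ahead of the second. It holds half-sites 73 to 64 and 51 to 42 bases upstream of that first start, chr17:29090906-29090915 and chr17:29090928-29090937, with 12 bases between them. Such a pair, with a spacer of up to 13 bases, was found in 21 of the 32851 windows (0.0639%). In Ccng1 a 20-base adjacent pair with 1 mismatch lies 195 to 176 bases upstream of the start, at chr11:40755462-40755481, and adjacent pairs of this kind occurred in 25 of the windows (0.0761%), the second half-site of Cdkn1a opening another one. Mdm2 holds 1 half-site in this window, 186 to 177 bases upstream, at chr10:117710935-117710944. These matches are a description of letters, and sites further away, such as those inside genes, were not searched.

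Across the 9 genes, 3 stood higher in knockout kidneys by probe sets whose arrays did not overlap between the groups, namely Btg2, Phlda3 and Bcl2l11. Counted by probe set, every knockout array lay above every normal array in 5 of 18 (27.8%), against 9.17% of all probe sets tested. A gene with several probe sets has more chances to hold 1 that does not overlap. The feedback genes Mdm2 and Ccng1 and the BH3-only gene Bbc3 differed by at most 0.17 on the log2 scale in any probe set above the filter. Cdkn1a and Pmaip1 were uneven among the knockout arrays. None of the differences passed the adjusted threshold of 0.05 in the main comparison (limma, Benjamini-Hochberg adjustment over 27022 probe sets), and 0.581% of all probe sets tested did. Of the 20 probe sets, 18 lay above the filter on dim probe sets, a geometric mean signal of 14.7 over the arrays. The other 2 lay below it, 1 each of Cdkn1a and Mdm2.

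**Figure D1:**
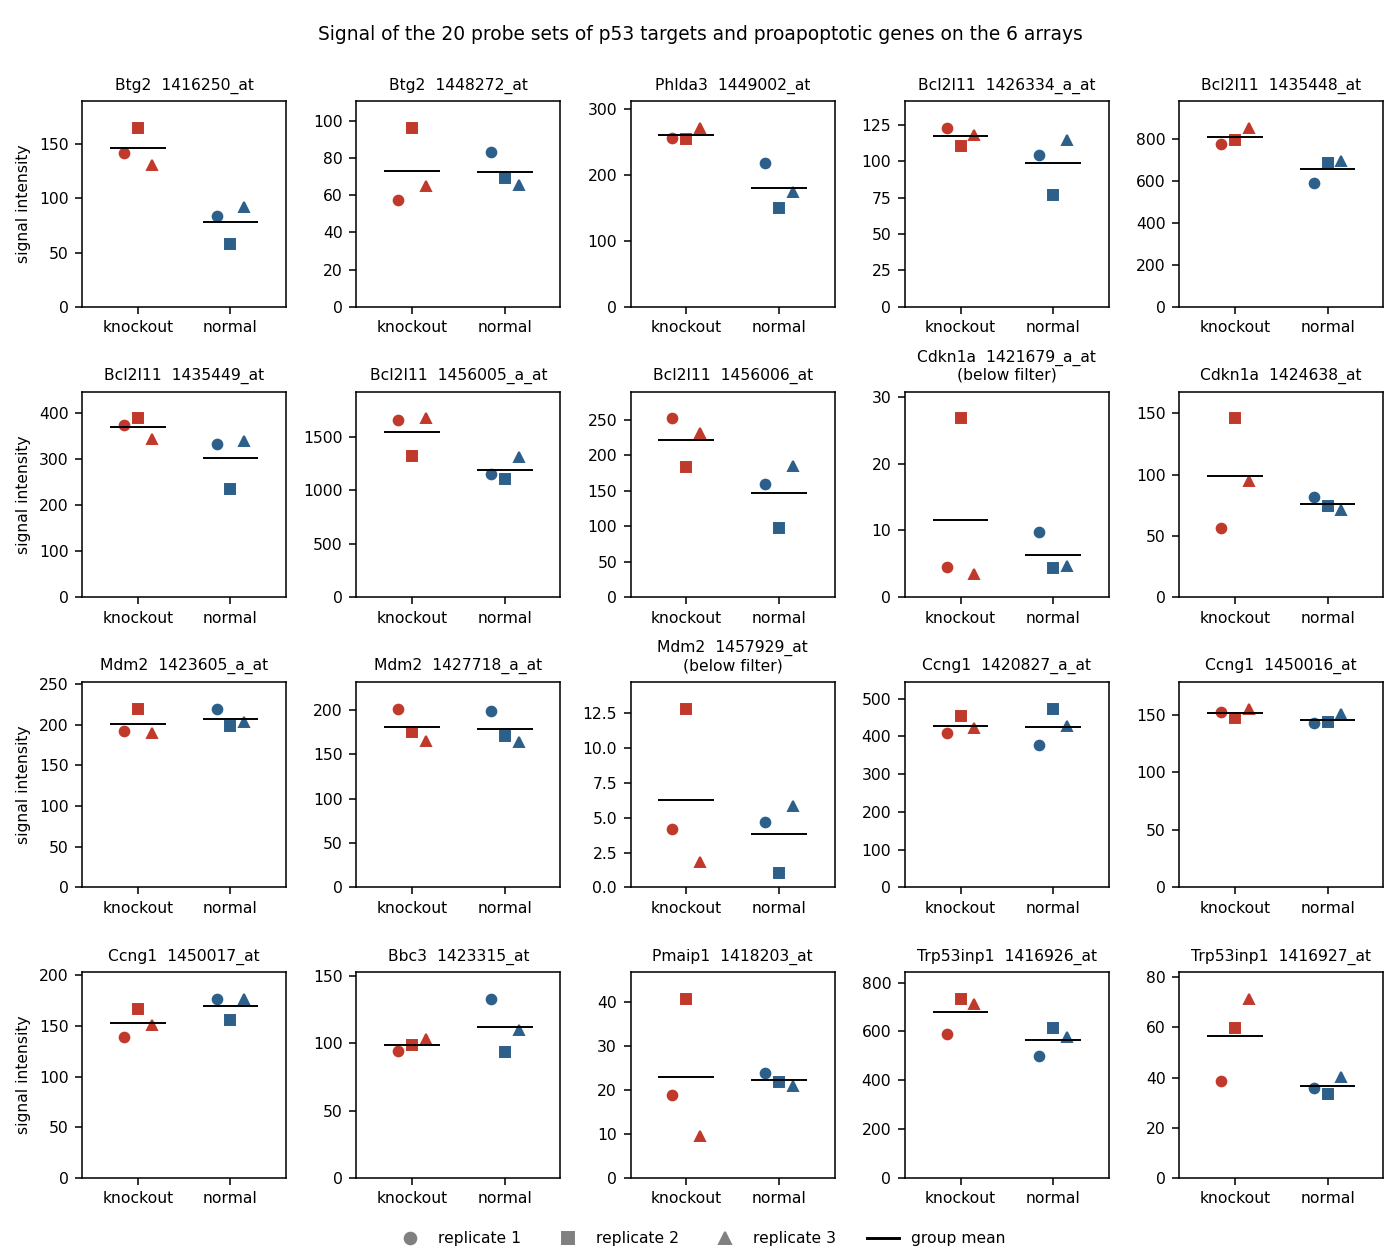
Signal intensity (linear, each vertical axis starting at 0) of the 20 probe sets, with 1 panel a probe set, knockout arrays left in red and normal arrays right in blue, marker shapes for replicates and lines for group means. The knockout points of Btg2 1416250_at, at 131 to 165, lie above the normal ones, at 58.1 to 92.2, while those of Cdkn1a 1424638_at run from 56.7 to 145.8 around normal ones at 71.4 to 81.7.

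Btg2, an antiproliferative gene that slows entry into S phase and is induced both by p53 and by growth stimuli, was measured by 2 probe sets that disagreed. Probe set 1416250_at read 142, 165 and 131 in knockout replicates 1 to 3, against 83.5, 58.1 and 92.2 in normal replicates 1 to 3. Every knockout array lay above every normal array, and normal replicate 2 was the lowest. The log2 difference, knockout minus normal throughout, was 0.93 (SE 0.20, 95% interval 0.48 to 1.38), or 1.90-fold, with a limma adjusted p of 0.112. After scaling the arrays to a common median this probe set passed, at 0.94 (limma adjusted p = 0.0131), as it did after quantile normalization, also at 0.94 (limma adjusted p = 0.0486). It passed under no other alternative. Over all 14 alternatives the difference ran from 0.73 to 1.06 and the limma adjusted p from 0.0131 to 0.429.

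Probe set 1448272_at of Btg2 read 57.6, 96.1 and 65.1 in knockout replicates 1 to 3, against 83.0, 69.2 and 65.7 in normal replicates 1 to 3. The groups overlapped, and knockout arrays held both the highest and the lowest value. Its log2 difference was -0.02 (SE 0.23, 95% interval -0.54 to 0.49; limma adjusted p = 0.980), turning to 0.0050 after quantile normalization. Averaged over both probe sets, Btg2 differed by 0.45 (95% interval 0.05 to 0.85; limma adjusted p = 0.370 over 12464 genes). The higher Btg2 signal therefore holds for 1 of its 2 probe sets.

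Cdkn1a encodes p21, the inhibitor of cyclin-dependent kinases through which p53 stops the cell cycle. Its brighter probe set, 1424638_at, read 56.7, 145.8 and 94.5 in knockout replicates 1 to 3, against 81.7, 74.0 and 71.4 in normal replicates 1 to 3. The knockout arrays spread on both sides of the normal ones, with a highest-to-lowest ratio of 2.57 over the 6 arrays. The log2 difference was 0.29 (SE 0.30, 95% interval -0.40 to 0.97; limma adjusted p = 0.745) and -0.05 without knockout replicate 2. The other probe set, 1421679_a_at, lay below the filter at 4.5, 26.8 and 3.5 in knockout replicates 1 to 3 and 9.8, 4.4 and 4.7 in normal replicates 1 to 3. Knockout replicate 2 was the highest array for both Cdkn1a probe sets and the only one above 14.7 for the dim one.

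Phlda3, a p53 target with a pleckstrin homology domain that keeps the survival kinase Akt from the membrane, had 1 probe set. It read 257, 255 and 271 in knockout replicates 1 to 3, against 218, 150.0 and 174 in normal replicates 1 to 3. The knockout arrays lay close together and all above the normal ones. The log2 difference was 0.55 (SE 0.15, 95% interval 0.22 to 0.88), or 1.46-fold, with a limma adjusted p of 0.214. Without normal replicate 2, the lowest array, it was 0.42, and without normal replicate 1, the highest normal array, it was 0.69 (limma adjusted p = 0.0581). With each array left out, the limma adjusted p ran from 0.0581 to 0.514.

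The genes through which p53 restrains itself, Mdm2 and Ccng1, varied least: the highest array exceeded the lowest by ratios of 1.09 to 1.27 in their probe sets above the filter, against 1.42 or more in those of the other genes. Mdm2 probe set 1423605_a_at read 192, 219.6 and 190.2 in knockout replicates 1 to 3, against 219.6, 199 and 203 in normal replicates 1 to 3, a log2 difference of -0.05 (95% interval -0.31 to 0.22). Its probe set 1427718_a_at read 201.5, 175 and 165 in knockout kidneys and 199, 171 and 164 in normal kidneys, a difference of 0.02 (95% interval -0.28 to 0.32). The groups overlapped for both, with limma adjusted p of 0.901 and 0.969. The third Mdm2 probe set, 1457929_at, lay below the filter at 4.2, 12.8 and 1.8 in knockout kidneys and 4.7, 1.0 and 5.8 in normal kidneys.

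Ccng1 encodes cyclin G1, a p53 target that brings a phosphatase to Mdm2. Of its 3 probe sets, 1450016_at varied least of all those above the filter, by a ratio of 1.09 from highest to lowest array. It read 153, 147 and 155 in knockout replicates 1 to 3, against 143, 143 and 151 in normal replicates 1 to 3, a log2 difference of 0.06 (95% interval -0.21 to 0.33). The remaining probe sets, 1420827_a_at and 1450017_at, differed by 0.01 (95% interval -0.23 to 0.26) and -0.15 (95% interval -0.45 to 0.14). For all 3 the groups overlapped, and the limma adjusted p lay between 0.666 and 0.971.

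Trp53inp1, a stress-induced nuclear protein that acts with p53 on arrest and death, was higher by both probe sets in knockout replicates 2 and 3. Probe set 1416926_at read 590.1, 732 and 711.5 in knockout replicates 1 to 3, against 499.5, 613 and 578 in normal replicates 1 to 3. The groups overlapped because knockout replicate 1 fell below normal replicate 2, and the log2 difference was 0.27 (SE 0.12, 95% interval 0.00 to 0.53; limma adjusted p = 0.436). The dimmer 1416927_at read 38.6, 59.8 and 71.3 in knockout kidneys and 36.0, 33.4 and 40.4 in normal kidneys. Its log2 difference was 0.59 (SE 0.27, 95% interval -0.02 to 1.20; limma adjusted p = 0.447), and here too knockout replicate 1 lay inside the normal range.

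Bcl2l11, which encodes the BH3-only protein Bim and is driven in many cells by FOXO factors more than by p53, was higher by all 5 of its probe sets. Probe set 1456005_a_at, the brightest, read 1654, 1320.5 and 1673 in knockout replicates 1 to 3, against 1154, 1104 and 1309 in normal replicates 1 to 3. Its log2 difference was 0.38 (SE 0.11, 95% interval 0.12 to 0.63), or 1.30-fold, with a limma adjusted p of 0.272. The groups did not overlap, though knockout replicate 2 lay barely above normal replicate 3.

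Next in brightness, Bcl2l11 1435448_at read 773, 796 and 851 in knockout replicates 1 to 3, against 590.3, 685 and 693 in normal replicates 1 to 3, a log2 difference of 0.30 (SE 0.09; limma adjusted p = 0.296). Probe set 1435449_at read 375, 389 and 345 in knockout kidneys, against 333, 235 and 339 in normal kidneys, a difference of 0.31 (SE 0.15; limma adjusted p = 0.470). In both, every knockout array lay above every normal one. Probe sets 1456006_at (252, 183 and 231 in knockout, 159, 97.0 and 185 in normal kidneys) and 1426334_a_at (123, 111 and 118 in knockout, 105, 76.8 and 115 in normal kidneys) overlapped, the lowest knockout array, replicate 2, falling under normal replicate 3. Their log2 differences were 0.63 (SE 0.24; limma adjusted p = 0.377) and 0.27 (SE 0.18; limma adjusted p = 0.593).

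Averaged over its 5 probe sets, Bcl2l11 lay at 0.44, 0.28 and 0.41 in knockout replicates 1 to 3, against 0.05, -0.26 and 0.21 in normal replicates 1 to 3, on the log2 scale relative to the normal mean. The mean difference was 0.38 (SE 0.13, 95% interval 0.09 to 0.66; limma adjusted p = 0.290 over 12464 genes). The 5 probe sets read the same RNA samples and are not replicates of one another. In whole kidneys, more cells carrying a transcript and more transcript per cell cannot be told apart, for Bcl2l11 as for every gene here.

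For the other BH3-only genes the groups overlapped. Bbc3, which encodes Puma, read 94.4, 99.1 and 103.5 in knockout replicates 1 to 3, against 133, 93.7 and 109.7 in normal replicates 1 to 3. All knockout arrays lay inside the normal range, and the log2 difference was -0.17 (SE 0.17, 95% interval -0.54 to 0.21; limma adjusted p = 0.727). Pmaip1, which encodes Noxa, read 18.9, 40.7 and 9.5 in knockout kidneys, against 23.9, 21.7 and 20.9 in normal kidneys. Its knockout arrays surrounded the tight normal group, so the difference of -0.19 had an interval from -1.32 to 0.94 (limma adjusted p = 0.908) and was 0.33 without knockout replicate 3.

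**Figure D2:**
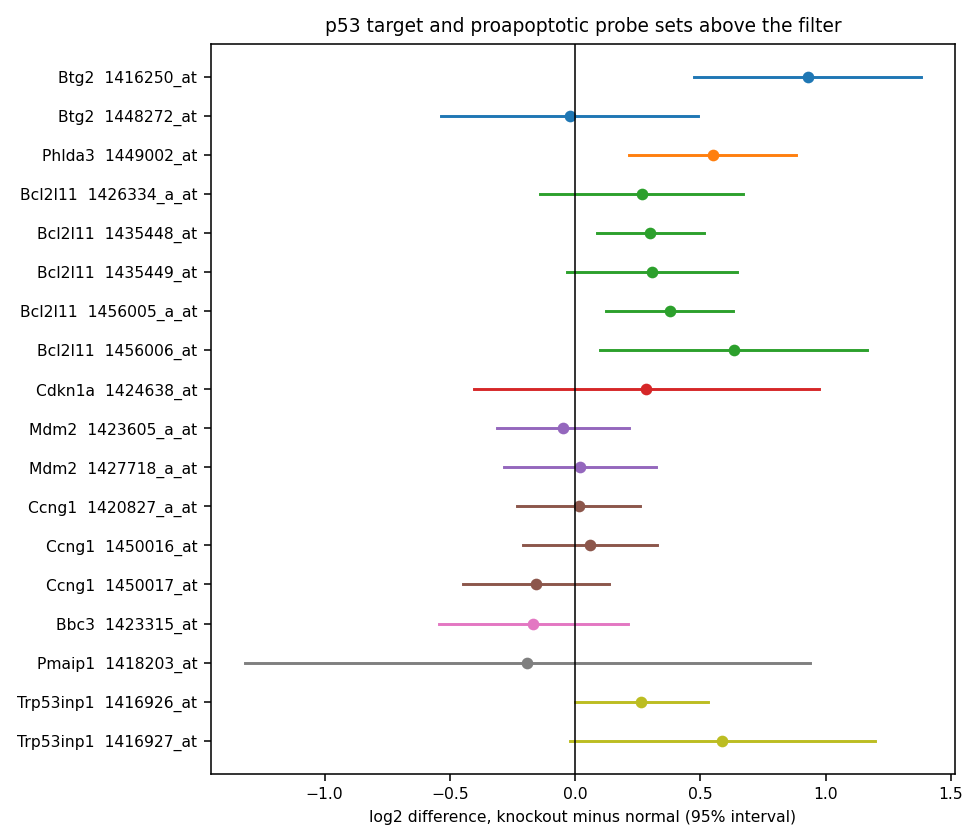
Log2 difference, knockout minus normal, of the 18 probe sets above the filter (points) with the 95% interval from limma (lines), 1 colour a gene. The intervals of Btg2 1416250_at, Phlda3 and 3 of the 5 Bcl2l11 probe sets lie above 0, that of Trp53inp1 1416926_at starts at 0.00, and those of Mdm2, Ccng1 and Bbc3 span 0.

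Of the 18 probe sets tested, 13 had a positive log2 difference, against 48.1% of all 27022. At an unadjusted limma p under 0.05, 6 were higher and 0 lower, against 5.74% and 5.72% of all probe sets, and these 6 belong to 4 genes (Btg2, Phlda3, Trp53inp1 and, with 3, Bcl2l11). In 5 probe sets of 3 genes every knockout array exceeded every normal array, as in 9.17% of all probe sets, and in 0 the reverse held, as in 8.69%. The median log2 difference was 0.27 over the 18 probe sets and -0.01 over all tested. It fell to 0.14 without knockout replicate 2 and to 0.12 without normal replicate 2. Since several probe sets share a gene and the genes were picked with these values known, the counts describe the set and test nothing.

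Among the 18 probe sets above the filter, knockout replicate 2 was the highest array in 7 and the lowest in 0. These 7 include a tie, Mdm2 1423605_a_at, where normal replicate 1 read the same 219.6. Knockout replicate 3 was the highest in 5 and the lowest in 2. Normal replicate 2 was the lowest array in 8 and the highest in 1. Both Cdkn1a probe sets, Pmaip1 and both Btg2 probe sets peaked on knockout replicate 2.

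Markers of other cell types differed between arrays and, in some lists, between groups. By their brightest probe sets, skeletal muscle genes had 14 positive and 1 negative log2 differences (median 1.80). Macrophage genes had 14 and 1 (median 0.69), and erythroid genes 7 and 0 (median 0.86). Chromaffin genes had 7 and 7 (median -0.0040), and endothelial genes 4 and 6 (median -0.12). In each of these lists 0 genes passed the adjusted threshold in limma. The skeletal muscle list, with 15 of 19 genes above the filter, had medians of 1.66, 3.95 and -0.04 in knockout replicates 1 to 3 and -0.02, -0.03 and 0.25 in normal replicates 1 to 3 (log2, relative to the normal mean). Its summed signal ran from 969 to 8981 in knockout and from 781 to 859.5 in normal arrays, with Myf5, Myh8, Tnnc2 and Ckm below the filter. The macrophage list, with 15 of 16 genes above the filter and Itgam below it, had medians of 0.39, 0.81 and 0.62 in knockout replicates 1 to 3 and 0.48, -0.56 and 0.10 in normal replicates 1 to 3. Its summed signal ran from 1404 to 2045 in knockout and from 704 to 1514 in normal arrays. Normal replicate 2, low in macrophage genes, was also the lowest array for Phlda3, Btg2 1416250_at and 4 of the 5 Bcl2l11 probe sets. It also had the lowest median signal over all probe sets, 24.9, with knockout replicate 3 at 25.1. Normal replicate 1, with a macrophage median above that of knockout replicate 1, lay below every knockout array for Phlda3 and Btg2 1416250_at. The erythroid list, 7 of 12 genes above the filter, had medians of 0.62, 0.40 and 1.13 in knockout and -0.39, 0.79 and -0.29 in normal replicates 1 to 3, and the chromaffin list, 14 of 18, had medians of 0.53, 0.18 and -0.39 in knockout and 0.97, -0.59 and -0.29 in normal replicates 1 to 3. The part of RNA from these other cells in the differences above was not tested.

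**Figure D3:**
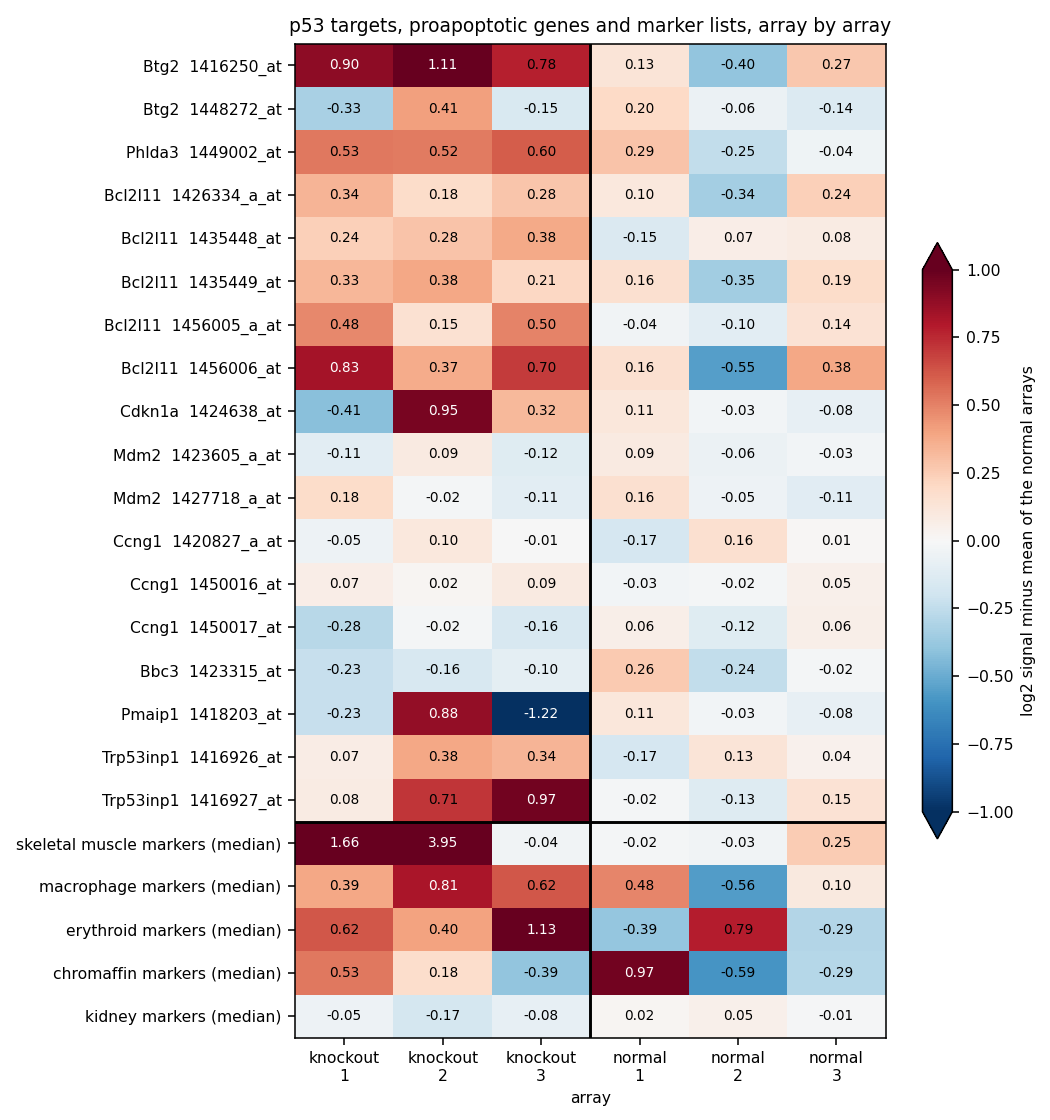
Log2 signal minus the mean of the 3 normal arrays for the 18 probe sets above the filter (upper rows) and the median of 5 marker lists (lower rows), with knockout arrays in the left columns and normal arrays in the right; colours are capped at 1 and the values are printed. Knockout replicate 2 holds the highest Cdkn1a (0.95) and Pmaip1 (0.88) values together with the muscle list at 3.95. Knockout replicate 1, with the muscle list at 1.66, holds the lowest Cdkn1a value (-0.415) and Pmaip1 at -0.23. Normal replicate 2 holds low Bcl2l11 1456006_at (-0.55) with the macrophage list at -0.56. That probe set is at 0.16 in normal replicate 1 and 0.83 in knockout replicate 1, with the macrophage list at 0.48 and 0.39.

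Of 16 kidney marker genes listed, 15 were above the filter, with a summed signal of 7432 to 7908 in knockout and 7470.0 to 8050.3 in normal arrays. The list's median was -0.05, -0.17 and -0.08 in knockout replicates 1 to 3 and 0.02, 0.05 and -0.02 in normal replicates 1 to 3. Of these genes, 5 had positive and 10 negative log2 differences, and 0 passed the adjusted threshold in limma. Ctnnb1, the targeted gene, was not lower in knockout kidneys by any of its 3 probe sets, the brightest averaging 6714 ± 111 in knockout and 6338 ± 557 in normal kidneys (SD, n = 3 each; limma adjusted p = 0.695). Where its probes lie relative to the deleted exons is not analysed here, so the values neither bear out nor question the labels. The log2 signals of arrays correlated at 0.973 or more among knockout, 0.961 or more among normal and 0.951 or more across groups.

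The rest of the pathway was described through 5 lists, each gene by its brightest probe set above the filter. Of 105 distinct genes measured, 0 passed in either direction (limma, Benjamini-Hochberg adjustment), against 0.602% of all 12464 genes. At an unadjusted limma p under 0.05, 7 were higher and 2 lower, against 6.14% and 5.57% of all genes. In each list the genes named are those with the smallest p.

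Other p53 targets, with 34 of 43 listed genes measured, had 25 positive and 9 negative log2 differences and a median of 0.10, beside 49.4% positive and a median of -0.0030 among all genes. Abhd4, which encodes a lipid hydrolase, read 931.5, 1078 and 1108 in knockout kidneys, against 846, 881 and 845.5 in normal kidneys, a log2 difference of 0.27 (limma adjusted p = 0.320). Plk2, a polo-like kinase, read 531, 561 and 567 in knockout kidneys, against 445, 462.5 and 499.8 in normal kidneys, a difference of 0.24 (limma adjusted p = 0.378). For both the groups did not overlap, although a further Abhd4 probe set above the filter differed by -0.0040. Cdkn1b, which encodes the cell cycle inhibitor p27, differed by 0.27 (limma adjusted p = 0.455). Whether p53 controls each listed gene, Cdkn1b included, and in which direction, was not tested. The signs are therefore not a count of genes induced by p53. Named after their values were seen, the damage-response targets Sesn1 (0.07, other probe sets 0.33 and 0.10) and Ddb2 (0.23, other 0.12) were positive. Named likewise, Rrm2b (0.16, other 0.11), Gadd45a (0.19), Polk (0.17, other -0.26) and Xpc (0.13) were positive by their brightest probe set. Zmat3 (-0.13) and Aen (-0.22, others -0.32, -0.18 and -0.70) were negative. The SE was 0.11 for Sesn1, 0.20 for Gadd45a and 0.16 for Xpc. Negative genes with smaller p, named likewise, were Pidd1 (-0.34, SE 0.18) and Gtse1 (-0.31, SE 0.18), among others. All these genes are examples from a list with 25 positive and 9 negative differences, of which 0 passed the adjusted threshold in limma.

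Regulators of p53, with 18 of 22 listed genes measured, had 4 positive and 14 negative differences and a median of -0.08. The acetyltransferase Crebbp read 805, 906 and 824 in knockout kidneys, against 985, 996.5 and 951 in normal kidneys, a log2 difference of -0.21 (limma adjusted p = 0.387). Its other probe sets above the filter differed by -0.15 and 0.39. The related acetyltransferase Ep300 differed by -0.27 (limma adjusted p = 0.453). Ppm1d, a phosphatase that switches p53 signalling off and is itself a p53 target, differed by 0.24 (limma adjusted p = 0.467) and by 0.04 in its other probe set. Trp53 had no single-symbol probe set in the annotation used and is not analysed here, and the p53 relatives Trp63 and Trp73 and the Mdm2 inhibitor gene Cdkn2a lay below the filter.

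The other Bcl-2 family genes, 13 of 18 measured, had 7 positive and 6 negative differences and a median of 0.03. Mcl1, a guardian that binds Bim, read 1534, 1652 and 1657 in knockout kidneys, against 1308, 1456 and 1341.5 in normal kidneys. Its log2 difference was 0.24 (limma adjusted p = 0.320), and its 5 other probe sets above the filter lay between -0.07 and 0.18. Bcl2l12 read 223, 160.5 and 211 in knockout kidneys, against 131, 159.5 and 136 in normal kidneys, a difference of 0.47 (limma adjusted p = 0.338). Bak1, a pore-forming effector, averaged 90.7 ± 5.86 in knockout and 175 ± 94.2 in normal kidneys (SD, n = 3 each), the normal arrays reading 277, 156 and 91.4. Normal replicate 3 lay inside the range of the knockout arrays, and the log2 difference was -0.80 (limma adjusted p = 0.418). The guardian Bcl2, named after its values were seen, was at -0.11 by its brightest probe set (limma adjusted p = 0.775) and at -0.14, -0.52, -0.82 and -0.59 by its 4 other ones above the filter, of which 0 passed (smallest limma adjusted p = 0.328). The related guardian Bcl2l1, named likewise, was at 0.03 by its brightest probe set and at 0.24 and 0.28 by its others. Bcl2l2 and Bok, named likewise, were at -0.29 (limma adjusted p = 0.467) and -0.20 (limma adjusted p = 0.51). For both, every knockout array lay below every normal array, as in 8.69% of all probe sets tested.

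The machinery that carries out apoptosis, 24 of 29 genes measured, had 9 positive and 15 negative differences and a median of -0.03. Pdcd4, a translation inhibitor linked to programmed cell death, averaged 1322 ± 57.1 in knockout and 1161 ± 17.8 in normal kidneys, a log2 difference of 0.19 (limma adjusted p = 0.402). The executioner caspase gene Casp6 averaged 532 ± 64.2 in knockout and 448 ± 9.82 in normal kidneys (SD, n = 3 each), a difference of 0.24 (limma adjusted p = 0.434). Every knockout array exceeded every normal array for both these probe sets. A dimmer Casp6 probe set differed by 1.07 (SE 0.57; limma adjusted p = 0.508), reading 25.7, 22.8 and 17.8 in knockout kidneys, against 18.4, 4.2 and 14.7 in normal kidneys. The death receptor gene Tnfrsf21 differed by -0.26 (limma adjusted p = 0.511) and, in its other probe set, by -0.18.

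Immediate early genes, which cells switch on within minutes of stimulation or dissection and among which Btg2 is often counted, were the last list, with 16 of 19 measured. They had 8 positive and 8 negative differences and a median of 0.01. The list's median was -0.02, 0.04 and 0.02 in knockout replicates 1 to 3 and 0.13, -0.06 and -0.05 in normal replicates 1 to 3. Klf4, a transcription factor that p53 also induces, read 454, 663 and 375 in knockout kidneys, against 368.5, 248 and 282 in normal kidneys, a log2 difference of 0.71 (limma adjusted p = 0.280) with a second probe set at 0.01. Atf3 differed by 0.59 and Egr1 by -0.29 (limma adjusted p = 0.453 and 0.525). Klf4 and Atf3 both read highest on knockout replicate 2, at 663 and 61.4.

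**Figure D4:**
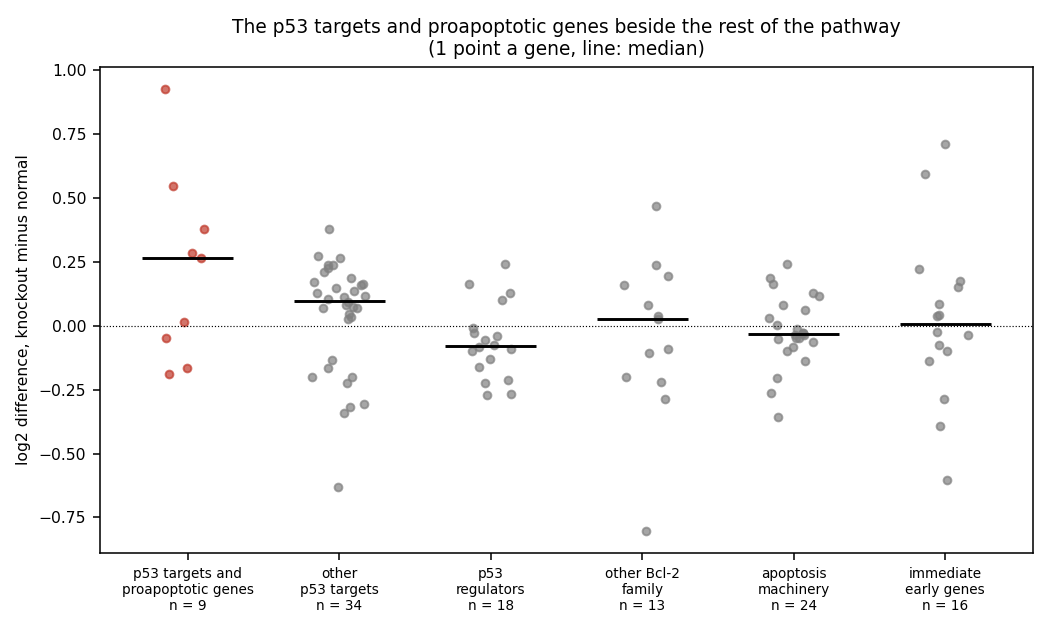
Log2 difference, knockout minus normal, of the 9 genes measured (red) and of the 5 other lists of the pathway (grey), 1 point a gene by its brightest probe set above the filter, with lines at the medians. The medians are 0.27 for the 9 genes, 0.10 for other p53 targets, -0.08 for p53 regulators, 0.03 for other Bcl-2 family genes, -0.03 for the apoptosis machinery and 0.01 for immediate early genes.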

How the data were processed

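Gene expression was measured in 3 beta-catenin conditional knockout and 3 normal kidney samples. The deposited values are linear signal intensities, 1 for each probe set. The authors computed them in MAS5, per the submitters' processing notes, of which no version, detection call or setting is known here. After trimming 2% at each end, every array had a mean intensity of 150.0, and medians spanned 0.37 on the log2 scale, so no further scaling was applied. MAS5 subtracts mismatch signal, so dim values scatter widely on a log scale.

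From these, the 15 zeros were raised to 1.7 (10th percentile of all positive signals) and log2 was taken. Of 45101 probe sets, 64 controls were left out, and 27022 with a mean log2 signal above the 40th percentile (a geometric mean of 14.7) were tested. The test was limma 3.58.1 in R 4.3.3 (lmFit and eBayes, trend on intensity), adjusting by Benjamini-Hochberg, with a threshold of 0.05. Intervals are 95% intervals from that fit. The number of arrays limits the precision. Symbols came from the platform annotation, updated by gene identifier for the lists. The genes described and the lists were chosen with earlier results of these data known. The named genes are every probe set of the 9 measured genes, Ctnnb1 and, in each of the 5 pathway lists, the 3 with the smallest p. Others are marked as named after their values were seen. Before use, the model was tested on simulated data. Alternatives covered scaling, filter, pseudocount, variance model, array weights, replicate block and leaving out each array.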

Additional observations from a re-analysis of the deposited data

How the results depend on the processing

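Of 250 recomputed differences of single probe sets, 235 kept their direction and their side of the threshold, 2 newly passed and 13 changed sign. Those that newly passed were Btg2 1416250_at after median scaling and after quantile normalization, which gave 1 probe set past the threshold in each case, against 0 in the main comparison. Under every alternative run, 0 of the 105 pathway genes passed, of which 93 were tested under the stricter filter. Over all probe sets, 157 passed in the main comparison, 434 after median scaling, 41 without the intensity trend and 49 to 148 with each array left out. The median over the p53 target and proapoptotic probe sets ran from 0.12 to 0.27 with each array left out. Sign changes touched differences near 0 or uneven groups. Btg2 1448272_at stood at 0.0050 after quantile normalization and 0.021 with array weights, and Ccng1 1420827_a_at at -0.0060 with array weights. The mean over the 3 Ccng1 probe sets, which is not among the 250 differences of single probe sets, was -0.027. With each array left out, Btg2 1448272_at ran from -0.24 to 0.13, Ccng1 1420827_a_at from -0.069 to 0.094, Mdm2 1427718_a_at from -0.062 to 0.10, Cdkn1a 1424638_at from -0.046 to 0.64 and Pmaip1 from -0.72 to 0.33. The cause was not tested.

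Deviations from the group means correlated at 0.08, -0.11 and -0.20 between same-numbered knockout and normal arrays. Deviations within a group of 3 depend on one another, so these values cannot decide whether samples were paired or shared a batch. Over all pairs the highest, 0.30, joined knockout replicate 3 and normal replicate 2, the arrays with the lowest median signals (25.1 and 24.9). With the replicate block, 109 probe sets passed, none of the 18 among them, with a smallest limma adjusted p of 0.226 in the 18.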
